A study of Apis mellifera with 6 samples.

Results

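Reads at tRNA and microRNA gene loci were examined in midgut RNA of adult honey bees (Apis mellifera) fed halofuginone or its vehicle. The loci were the rows whose gene symbol starts with TRNA or Mir. There were 38 of them among the 10041 genes listed, 8 tRNA symbols and 30 microRNA symbols. Control bees received sucrose solution with 0.5% DMSO for 24 h, and treated bees the same solution with 200 µM halofuginone. No transgene or mutant was involved: by the study's methods the bees were adults of mixed subspecies caught at the hive entrance of outbred colonies, with no age stated, all bees of an experiment shared a colony, and midguts were sequenced singly, so the replicates are separate bees. The 3 control libraries are numbered Control 1 to 3 and the 3 treated libraries Halofuginone 2 to 4, and triplets of values below follow that order.

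Halofuginone blocks the enzyme that loads proline onto its tRNA, and the study used it to switch on the integrated stress response, in which a kinase senses uncharged tRNA and slows translation. tRNAs are made by RNA polymerase III and trimmed at both ends, whereas microRNAs are cut from long, polyadenylated RNA polymerase II transcripts by the enzymes Drosha and Dicer. Mature tRNAs and mature microRNAs carry no poly(A) tail and are short. In a poly(A) library the reads at these loci therefore come mostly from precursors, from host genes or from neighbouring transcripts, and the amount of mature RNA or of its charging was not measured.

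The libraries held between 23305398 and 26278866 recovered reads over the listed genes. Values are normalised read counts, that is, reads divided by 1 scaling factor per library (0.927 to 1.16). Marker genes were looked up by symbol. The midgut list held only 2 symbols, Hbg3 and Hbg1, and only Hbg3 was found, so the tissue label was not checked with a midgut-specific gene. Hbg3, an α-glucosidase known from the hypopharyngeal gland, had 1244 to 1834 normalised counts in the controls and 458 to 598 after halofuginone. The summed levels of the other marker lists did not overlap between groups either, each led by a few genes. The summed level of 4 of 8 symbols entered as muscle markers was 44593 to 58118 in controls and 21667 to 33581 in treated libraries. Nearly all of it came from Arp1, which was called (log2 fold change −1.01, limma adjusted p = 0.0401). Whether Arp1 is specific to muscle was not checked, so the sum is not read as an amount of muscle. The troponins TpnT (log2 fold change 0.19) and TpnI (0.11) overlapped between the groups, and the troponin TpnCIIIb did not. TpnCIIIb had 37.3, 51.3 and 38.0 normalised counts in controls and 21.5, 13.7 and 12.9 after halofuginone (limma adjusted p = 0.0590). For 5 of 6 fat body symbols the sums were 735 to 973 and 453 to 721, with 0 members called. For 2 of 6 nervous tissue symbols they were 5127 to 6502 and 7362 to 8598, nearly all from Syx1A (limma adjusted p = 0.115), while Syt1 overlapped (40.5 to 94.4 and 47.8 to 59.3). None of the 5 royal jelly protein symbols of the hypopharyngeal gland was among the listed genes. None of the markers found was at 0 in any library. In whole midguts, fewer cells of a type and less RNA per cell cannot be told apart, and the part of these shifts in the results below was not tested.

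Few of the annotated loci were among the listed genes. The gene table used for names holds 45 tRNA symbols for 20 amino acids, of which 8 symbols for 6 amino acids (glutamine, lysine, alanine, glycine, serine and arginine) were listed. None of its 3 symbols for proline tRNA (11 loci) was listed, so the tRNA whose charging halofuginone blocks is not analysed here. The table has 237 microRNA symbols, and 29 of them were listed, and Mir3732 was listed without an entry in the table. Every listed gene had at least 61 reads over the 6 libraries, so loci under that total are not analysed here. The tRNA loci lay near this limit, with 76 to 527 reads each in total, a median of 148.5 against 2487 over all listed genes. For the microRNA loci the median was 212 reads, and the range ran from 70 reads (Mir6044) to 106744 reads (Mir3732). No member was at 0 in any library. The lowest value was 3 reads for a tRNA locus and 8 reads for a microRNA locus.

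The comparison with control bees asked which of these loci carried more or fewer reads after halofuginone. All 10041 genes were fitted together with limma on log2(normalised count + 1), with calls made where the adjusted p (Benjamini-Hochberg, over all genes) was below 0.05 and the log2 fold change beyond 1 or −1. Of the 30 microRNA loci, 4 were called: Mir9865 and Mir9888 rose, and Mir750 and Mir1175 fell. Of the 8 tRNA loci 0 were called by limma, DESeq2 or edgeR, and 0 had an unadjusted p below 0.05 by any of these tools. Over all genes 2.37% were called, 1.67% as higher and 0.697% as lower. The groups did not overlap at 9 microRNA loci, 5 of them higher and 4 lower after halofuginone, and at 0 tRNA loci, where 30.6% of all genes did not overlap (15.9% higher, 14.7% lower). The share of microRNA loci without overlap was thus 30.0%, near that of all genes. The median log2 fold change was −0.07 for the microRNA loci, −0.13 for the tRNA loci and −0.01 for all genes.

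**Figure D1:**
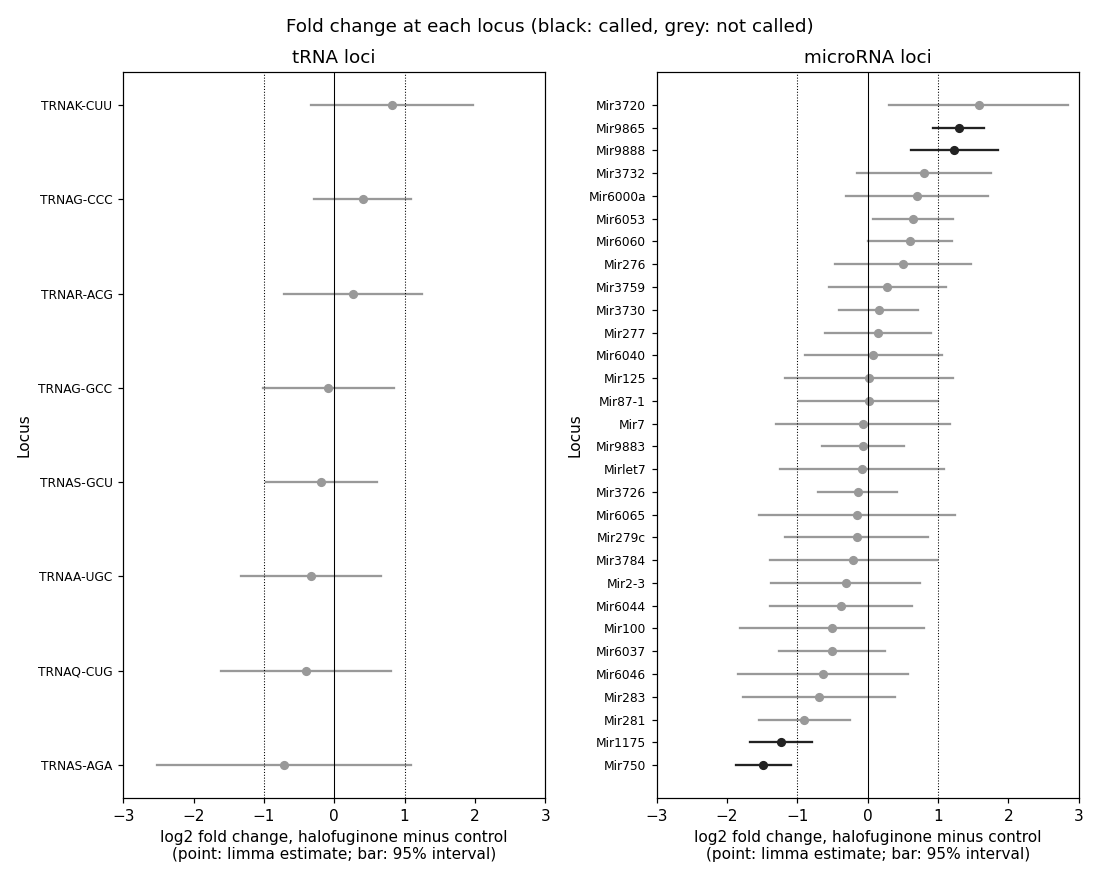
Log2 fold change (halofuginone minus control, limma on log2(normalised count + 1)) at each of the 8 tRNA loci (left) and 30 microRNA loci (right), with 95% intervals as bars and dotted lines at −1 and 1. All 8 tRNA intervals include 0, and the 4 called microRNA loci are drawn in black.

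The tRNA loci were taken by amino acid. Glutamine tRNA TRNAQ-CUG had 50.1, 60.2 and 83.1 normalised counts in the controls and 81.0, 20.6 and 63.6 after halofuginone. The lowest value came from a treated bee and the highest from a control, with the other treated bees between the controls. The estimate on the log2 scale was −0.40 ± 0.52 (limma SE, adjusted p = 0.693). Its symbol belongs to 6 loci in the gene table, none of them inside a listed gene.

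Alanine tRNA TRNAA-UGC had 44.7, 54.3 and 61.6 normalised counts in the controls and 80.0, 27.5 and 33.4 after halofuginone. Halofuginone 2 was the highest library and Halofuginone 3 the lowest, and the treated libraries had the same order at TRNAQ-CUG. The log2 fold change was −0.33 ± 0.42 (limma SE, adjusted p = 0.690). Lysine tRNA TRNAK-CUU had 32.0, 9.87 and 13.3 normalised counts in the controls and 22.4, 30.9 and 36.7 after halofuginone. Only Control 1 lay among the treated libraries. The estimate was 0.82 ± 0.49 (SE), with a limma adjusted p of 0.360, and moved between 0.49 (without Control 2) and 1.29 (without Control 1) when a library was left out.

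Of the glycine loci, TRNAG-CCC had the most reads of the class, with 66.0, 71.0 and 78.0 normalised counts in the controls and 69.3, 142 and 87.4 after halofuginone. Halofuginone 3 stood above the other 5 libraries, and Halofuginone 2 lay within the controls. The log2 fold change was 0.41 ± 0.29 (limma SE, adjusted p = 0.452). It is the only listed tRNA symbol with 1 locus in the table, inside the span of LOC408470. LOC408470 had 1813 ± 277 normalised counts in controls and 1758 ± 262 after halofuginone (SD, n = 3), and its highest treated library was also Halofuginone 3. TRNAG-GCC, with 8 loci, had a log2 fold change of −0.08 ± 0.40 (limma SE, adjusted p = 0.927).

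Serine tRNA TRNAS-GCU had 21.3, 22.7 and 36.9 normalised counts in the controls and 21.5, 24.9 and 22.7 after halofuginone. The treated libraries were close together, inside the range of the controls, and the log2 fold change was −0.18 ± 0.34 (limma SE, adjusted p = 0.797). The other serine locus, TRNAS-AGA, was the tRNA locus with the fewest reads and had the widest interval of the class, −2.52 to 1.09 around −0.72. Arginine tRNA TRNAR-ACG was estimated at 0.27 ± 0.42 (limma SE, adjusted p = 0.747). The 3 tRNA loci not given by library ran from 2.58 to 30.6 normalised counts.

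**Figure D2:**
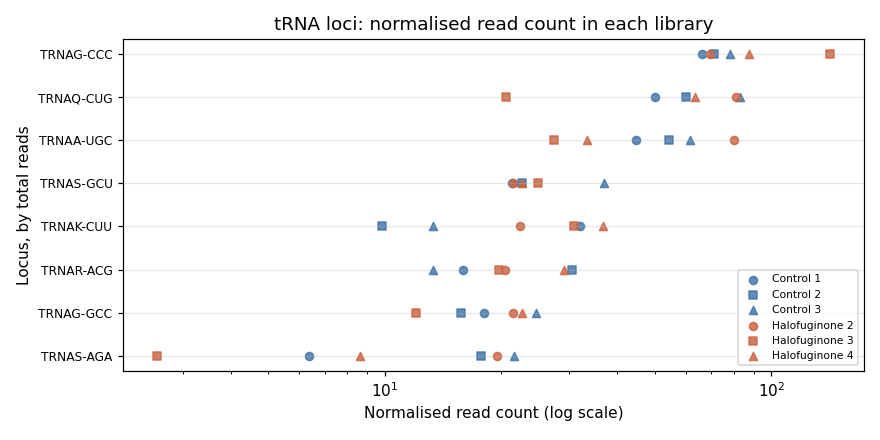
Normalised read count (log axis) of the 8 tRNA loci in the 3 control (blue) and 3 halofuginone (orange) libraries, ordered by total reads, with a marker shape for each library. Blue and orange points are mixed at every locus, from 2.58 counts (TRNAS-AGA, Halofuginone 3) to 142 counts (TRNAG-CCC, Halofuginone 3).

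As a class the tRNA loci held 0.00103% to 0.00131% of the reads in control libraries and 0.00114% to 0.00143% in treated libraries. Their summed normalised count was 290 ± 39.5 in controls and 307 ± 28.02 after halofuginone (SD, n = 3). The 95% interval of the log2 fold change reached beyond 1 or −1 at 7 of the 8 loci, and stayed inside (−0.98 to 0.61) only at TRNAS-GCU. Within groups the libraries varied by 1.42 to 12.1 times the variance that counting alone gives (median 5.25). The ratio was above 1 at all 8 loci. With 3 libraries per group a ratio near 1 can arise from counting alone, and the excess was not tested.

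Among the microRNA loci, Mir750 and Mir1175 fell together. These hairpins are known as close neighbours in other arthropods, and mir-1175 is known from the gut of mosquitoes. Mir750 had 409, 323 and 431 normalised counts in the controls and 145, 132 and 134 after halofuginone. All treated libraries lay far below the lowest control. The mean was 388 ± 57.3 in controls and 137 ± 7.23 in treated bees (SD, n = 3), 2.83-fold lower, and the log2 fold change was −1.48 ± 0.17 (limma SE, adjusted p = 0.00795).

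Mir1175 had 318, 233 and 314 normalised counts in the controls and 120, 110 and 134 after halofuginone. The groups did not overlap here either, and Control 2 was the lowest control at both loci. The mean fell from 288 ± 48.2 to 121 ± 11.98 (SD, n = 3), 2.38-fold lower, with a log2 fold change of −1.23 ± 0.19 (limma SE, adjusted p = 0.0164). Within a library Mir750 had 1.28 to 1.39 times the counts of Mir1175 in controls and 1.00 to 1.21 times in treated bees.

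In the gene table both hairpins are in unplaced sequence, where different scaffolds share 1 label, and their records adjoin each other within the span recorded for LOC100578661. Whether all 3 records belong to the same scaffold could not be checked. LOC100578661 had 1197, 1253 and 1461 normalised counts in the controls and 738, 499 and 800 after halofuginone. It too was lower in every treated library than in any control. The estimate for LOC100578661 was −0.96 ± 0.20 (limma SE, adjusted p = 0.0352), which passed the adjusted p but not the fold threshold. With 1 library left out it passed the adjusted p in 1 of 6 fits, that without Halofuginone 3 (range 0.0442 to 0.138). Mir750 had 25.7% to 34.2% of the counts of LOC100578661 in controls and 16.7% to 26.5% in treated bees, ranges that overlapped.

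Mir9865 rose. It had 278, 239 and 206 normalised counts in the controls and 575, 555 and 636 after halofuginone. The treated libraries were close to each other and all lay far above the highest control. The mean went from 241 ± 35.9 to 589 ± 42.3 (SD, n = 3), 2.44-fold higher, and the log2 fold change was 1.29 ± 0.15 (limma SE, adjusted p = 0.00889). It was the most precise estimate of the 38.

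The nearest listed gene to Mir9865 in the table is LOC410295, which does not contain it. LOC410295 had 396, 283 and 302 normalised counts in the controls and 571, 623 and 660 after halofuginone. It moved in the same direction without overlap, at 0.93 ± 0.16 (limma SE, adjusted p = 0.0234), short of the fold threshold. It passed both thresholds without Control 1 (1.08, limma adjusted p = 0.0141) and with library totals (1.02, 0.0287). The same held with replicates 2 and 3 alone and no block (1.03, limma adjusted p = 0.0467). Leaving out any library other than Control 1 ended the adjusted p call (0.0582 to 0.109). Mir9865 had 0.684 to 0.843 times the counts of LOC410295 in controls and 0.891 to 1.01 times in treated bees.

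Mir9888 rose as well, from 66.0, 118 and 111 normalised counts in the controls to 191, 234 and 257 after halofuginone. Control 1 was the lowest library, and no treated library reached down to a control. The mean was 98.4 ± 28.3 in controls and 227 ± 33.3 in treated bees (SD, n = 3), 2.31-fold higher, with a log2 fold change of 1.23 ± 0.26 (limma SE, adjusted p = 0.0408). The nearest listed gene, LOC409882, had many more counts, 12369 ± 3104 in controls and 13224 ± 1551 after halofuginone (SD, n = 3). The groups overlapped for this gene, at 0.12 ± 0.21 (limma SE, adjusted p = 0.777).

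**Figure D3:**
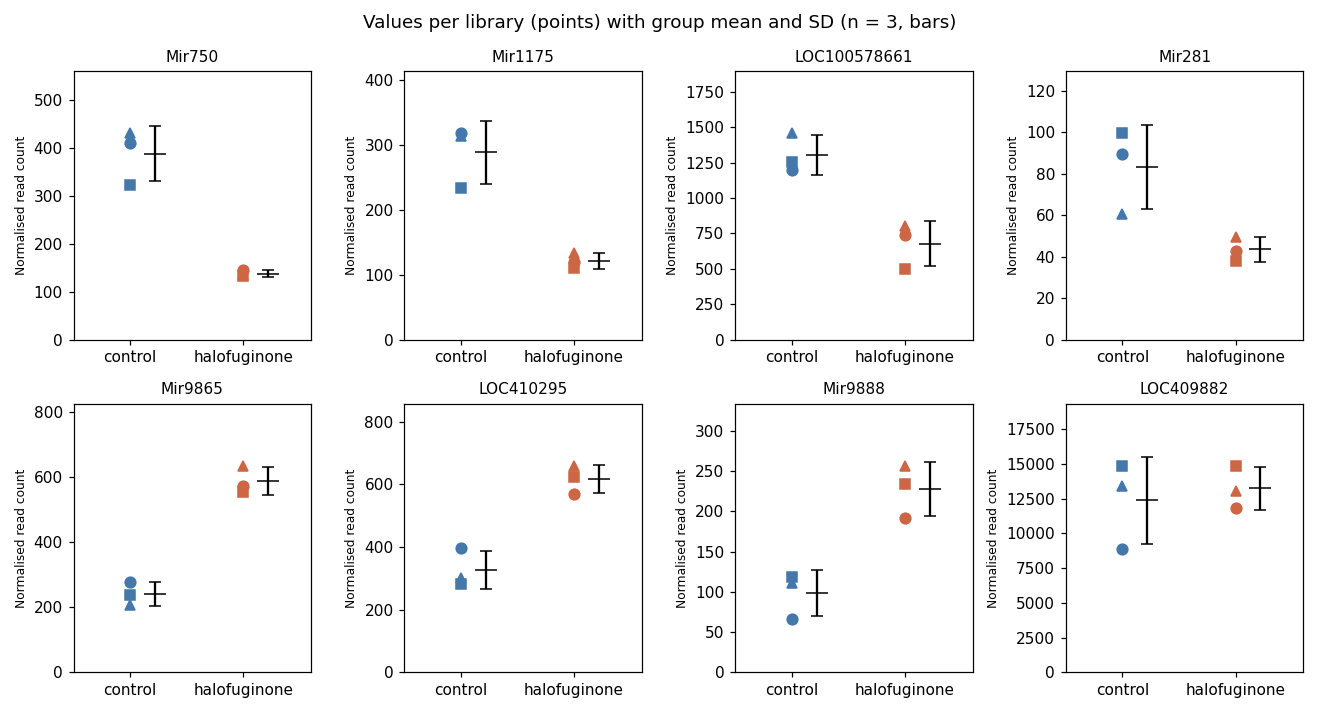
Normalised read count per library (points, linear axis from 0, marker shape by library in its group) with group mean and SD (n = 3). Panels show Mir750, Mir1175, Mir281, Mir9865, Mir9888, LOC100578661, LOC410295 and LOC409882. LOC410295 and LOC409882 are the nearest listed genes to Mir9865 and Mir9888. Whether LOC100578661 shares a scaffold with Mir750 and Mir1175 could not be checked. The groups are apart in all panels except that of LOC409882, where 8879 to 14823 counts in controls meet 11790 to 14869 in treated bees.

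Whether the 4 loci were called depended on which library was left out, while their log2 fold changes kept their sign. These ran from −1.61 to −1.40 for Mir750, −1.38 to −1.16 for Mir1175, 1.19 to 1.40 for Mir9865 and 0.97 to 1.39 for Mir9888. Without Control 3 none of the 4 loci passed the adjusted p (0.0528 for Mir9865, 0.0559 for Mir750, 0.0867 for Mir1175 and 0.112 for Mir9888). In that fit 47 genes were called over the whole table, against 238 with all libraries. The call of Mir9865 was also lost without Control 2 (0.0531), and that of Mir1175 without Halofuginone 2 (0.0542) or Halofuginone 4 (0.0505). Mir9888 was not called when any library was left out, with adjusted p values of 0.0806 to 0.120 except without Control 1, where the adjusted p was 0.0417 but the log2 fold change 0.97.

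A further 4 microRNA loci had an unadjusted limma p below 0.05 and were not called. At Mir281, a microRNA abundant in the midgut of Aedes mosquitoes, the controls had 89.5, 99.6 and 60.5 normalised counts and the treated bees 42.9, 37.8 and 49.6. The groups did not overlap, with Control 3 nearest to the treated libraries. The log2 fold change was −0.90 ± 0.27 (SE) and the limma adjusted p 0.0984. The alternatives gave adjusted p values of 0.0422 (DESeq2) to 0.287 (limma without Control 2). The nearest listed gene, LOC726591, had overlapping groups at −0.31 ± 0.30 (limma SE, adjusted p = 0.580).

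Mir3720 had the highest estimate of all 38 loci on few reads. It had 16.0, 7.89 and 8.21 normalised counts in the controls and 55.6, 16.3 and 36.7 after halofuginone. Control 1 and Halofuginone 3 differed by less than 1 normalised count, and Halofuginone 2 was 3.48 times the median of the other 5 libraries. The log2 fold change of 1.58 ± 0.54 (SE) had a limma adjusted p of 0.132. With DESeq2 the locus was called (1.76, adjusted p = 0.0487), and its adjusted p reached 0.312 in limma without Control 3. It lies inside LOC408741, whose groups overlapped (−0.13 ± 0.24, SE, limma adjusted p = 0.798).

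Mir6053 had 140, 185 and 199 normalised counts in the controls and 298, 201 and 330 after halofuginone. The groups did not overlap, but Halofuginone 3 was just above Control 3. Its log2 fold change was 0.64 ± 0.24 (limma SE, adjusted p = 0.162), and that of its nearest listed gene LOC551208 was −0.14 ± 0.37 (limma SE, adjusted p = 0.861).

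Mir6060 had 44.7, 70.0 and 65.7 normalised counts in the controls and 96.6, 96.2 and 78.7 after halofuginone. The log2 estimate was 0.60 ± 0.25 (limma SE, adjusted p = 0.204), without overlap. The nearest listed gene, LOC724919, was also higher in every treated library, at 0.55 ± 0.12 (limma SE, adjusted p = 0.0460). It did not pass in any of the 6 fits with 1 library left out (0.0687 to 0.160).

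Mir6037 was the remaining locus without overlap. The controls had 38.3, 35.5 and 34.9 normalised counts and the treated bees 17.6, 30.9 and 29.1, with Halofuginone 2 well below the rest. Its log2 fold change of −0.51 ± 0.32 (SE) had a limma adjusted p of 0.384. The nearest listed gene, LOC100578611, had 36.4 ± 15.6 counts in controls and 37.0 ± 12.6 after halofuginone (SD, n = 3).

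**Figure D4:**
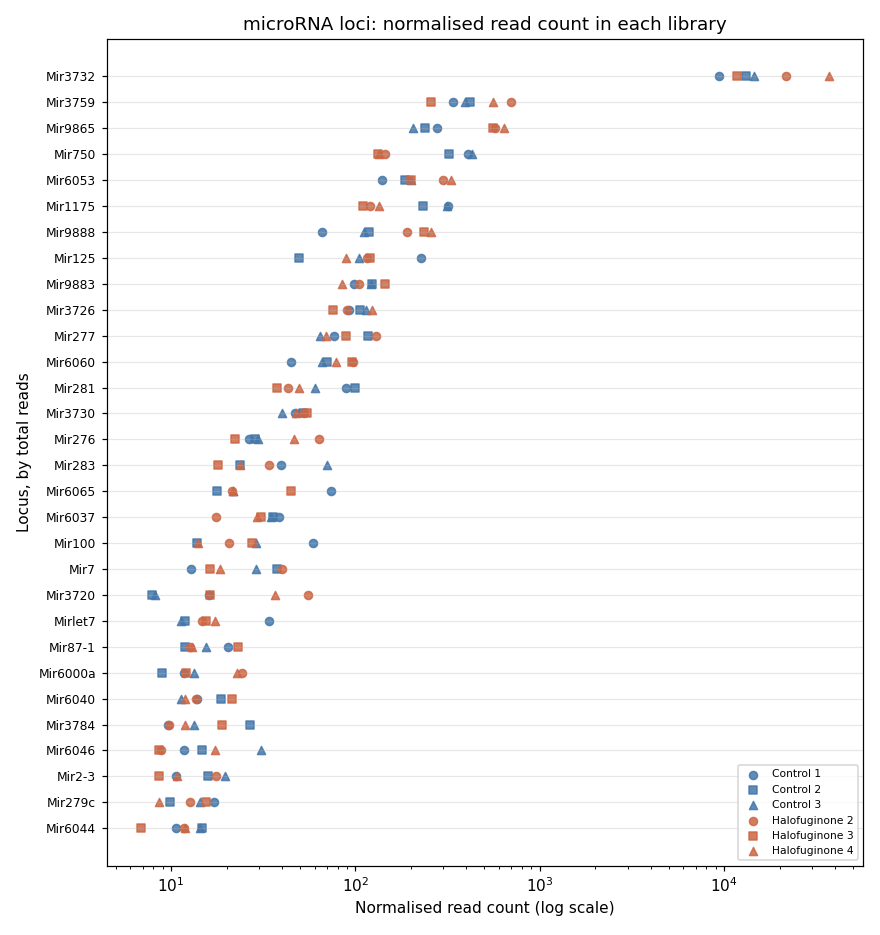
Normalised read count (log axis) of the 30 microRNA loci in the 3 control (blue) and 3 halofuginone (orange) libraries, ordered by total reads, with a marker shape for each library. Mir3732 stands far to the right, at 9356 to 37134 counts, while the lowest value is 6.87 counts (Mir6044, Halofuginone 3).

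The microRNA loci with the most reads were Mir3732, Mir3759, Mir9865, Mir750 and Mir6053. Mir3732 alone held 78.1% to 92.7% of the reads of the class in each library. It had 9356, 13129 and 14607 normalised counts in the controls and 21768, 11752 and 37134 after halofuginone. Halofuginone 4 was 2.83 times the median of the other 5 libraries, whereas Halofuginone 3 lay below both Control 2 and Control 3. The log2 fold change was 0.80 ± 0.40 (limma SE, adjusted p = 0.283). No containing or nearest gene was read for this locus.

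Mir3759 had 339, 418 and 393 normalised counts in the controls and 696, 256 and 559 after halofuginone. The treated libraries lay on both sides of the controls, with Halofuginone 3 lowest of all as it was for Mir3732 among the treated bees. Its log2 fold change was 0.28 ± 0.35 (limma SE, adjusted p = 0.686), and that of its nearest listed gene LOC413757 was −0.05 ± 0.13 (limma SE, adjusted p = 0.848).

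The class sum followed Mir3732. Summed over all 30 loci it was 14915 ± 2665 normalised counts in controls and 26335 ± 13005 after halofuginone (SD, n = 3). Without Mir3732 it was 2550 ± 105 and 2784 ± 328 (SD, n = 3), with Halofuginone 3 (2412) below all controls. The difference of these sums was smaller than the spread between treated libraries.

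The let-7 complex, Mir100, Mirlet7 and Mir125, is made from 1 primary transcript in Drosophila, where it acts in developmental timing under the steroid hormone ecdysone. In the gene table these loci are also next to each other. Mir125 had 227, 49.3 and 105 normalised counts in the controls and 115, 120 and 88.5 after halofuginone. Control 1 was the highest library and Control 2 the lowest, so the controls spanned the treated bees. Mir100 had 58.6, 13.8 and 28.7 counts in the controls and 20.5, 27.5 and 14.02 in treated bees. Mirlet7 had 34.1, 11.8 and 11.3 counts in the controls and 14.6, 15.5 and 17.3 after halofuginone. Control 1 was thus the highest library at all 3 loci. Their log2 fold changes were 0.02 ± 0.51, −0.50 ± 0.56 and −0.08 ± 0.50 (SE), with limma adjusted p values of 0.989, 0.634 and 0.944. The sign of Mir125 turned in DESeq2 and edgeR, and that of Mirlet7 with library totals. The nearest listed gene of all 3 loci, Ets97D-like, was highest in Control 1 too, at 501 normalised counts against 289 to 429 in the other libraries.

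**Figure D5:**
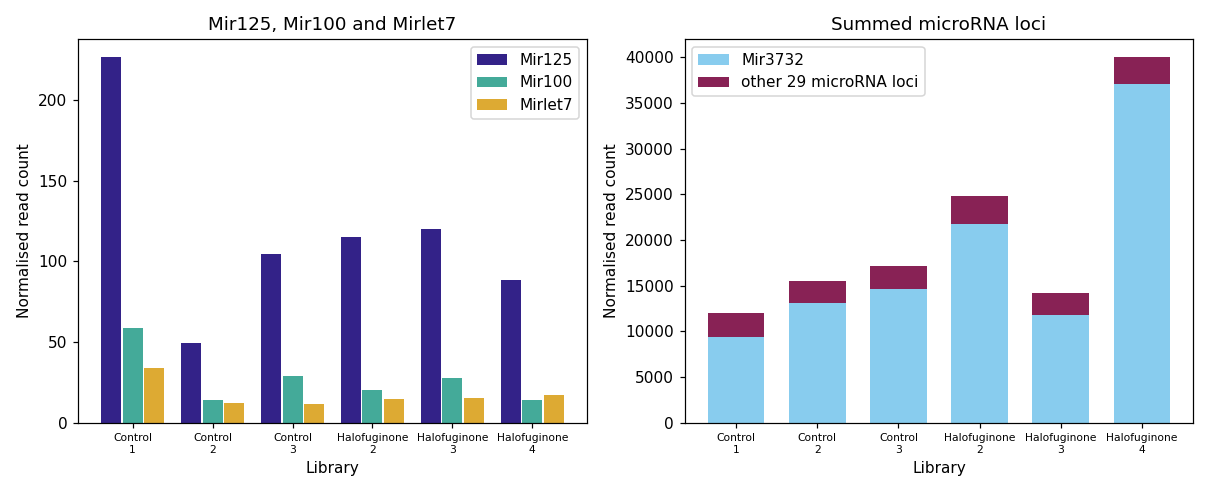
Left, normalised read count of Mir125, Mir100 and Mirlet7 in each library. Right, summed normalised read count of Mir3732 (light) and of the other 29 microRNA loci (dark) in each library, with Halofuginone 4 highest at 40039 in all. Control 1 is the highest library at all 3 loci of the left panel.

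Mir6065 also had its highest value in Control 1. It had 73.5, 17.8 and 21.5 normalised counts in the controls and 21.5, 44.6 and 21.6 after halofuginone, so Control 1 was 3.41 times the median of the other 5 libraries. Its log2 fold change was −0.15 ± 0.59 (limma SE, adjusted p = 0.913). The nearest listed gene, LOC413468, was at −0.32 ± 0.16 (limma SE, adjusted p = 0.291) and was highest in Control 1 too, with 1273 normalised counts.

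Among the conserved microRNAs, mir-277 regulates the breakdown of branched-chain amino acids in Drosophila. Mir277 had 76.7, 116 and 64.6 normalised counts in the controls and 129, 88.4 and 69.0 after halofuginone. The groups overlapped across nearly their whole range, at 0.15 ± 0.32 (limma SE, adjusted p = 0.832). Mir3730 differed little between groups, at 46.4 ± 6.15 and 51.7 ± 3.84 counts (SD, n = 3). Both lie inside LOC102655904, which had 1718, 1796 and 1992 counts in the controls and 2951, 3018 and 2656 in treated bees. That gene rose in the adjusted p, without overlap, by 0.65 ± 0.11 on the log2 scale (limma SE, adjusted p = 0.0232), short of the fold threshold. When a library was left out, it passed the adjusted p in 1 of 6 fits, that without Control 1 (range 0.0382 to 0.104). The difference between the microRNA loci and this gene was not tested.

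Other conserved loci had few reads. Mir276, whose Drosophila counterpart acts in olfactory memory, had 26.6, 28.6 and 29.8 normalised counts in the controls and 63.4, 22.3 and 46.4 after halofuginone. The controls were tightly grouped and the treated bees lay on both sides of them (0.50 ± 0.41, SE, limma adjusted p = 0.508). Mir283 was estimated at −0.70 ± 0.46 (limma SE, adjusted p = 0.404). Mir7, which stabilises cell fate decisions in the Drosophila eye, was at −0.07 ± 0.53 (limma SE, adjusted p = 0.957). Mir2-3, of a family that represses cell death genes in Drosophila, had a log2 fold change of −0.31 ± 0.45 (limma SE, adjusted p = 0.727).

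The 18 microRNA loci outside the rule for printing every library ran from 6.87 to 227 normalised counts and had log2 fold changes of −0.70 to 0.71, with limma adjusted p values of 0.368 to 0.989. Besides those named above they were Mir279c, Mir3726, Mir6044, Mir9883, Mir6046, Mir6000a, Mir6040, Mir87-1 and Mir3784. At 26 of the 30 microRNA loci the 95% interval reached beyond 1 or −1 on the log2 scale. It stayed within these limits at 4 loci, so a change beyond 2-fold was outside the interval there. These were Mir277 (−0.61 to 0.91), Mir3726 (−0.70 to 0.42), Mir3730 (−0.40 to 0.72) and Mir9883 (−0.65 to 0.51). The variance within groups was 0.546 to 59.0 times that of counting alone without Mir3732, and above it at 27 of the 30 loci.

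The position of the loci was compared with the listed genes that contain them or are nearest to them. The distance to a nearest gene was not limited, so it need not adjoin the locus. Of 27 microRNA loci placed in the gene table, 14 lay inside a listed gene and 13 outside. Of the 14 containing genes 0 were called by limma, and 1 of them, LOC102655904, had an adjusted p below 0.05. Among the 11 nearest genes of the loci outside, 0 were called and 3 had an adjusted p below 0.05: LOC410295, LOC724919 and LOC411238. The last is the nearest listed gene to Mir9883. LOC411238 (0.52 ± 0.11, limma SE, adjusted p = 0.0398) did not pass without any 1 of the libraries (0.0625 to 0.145). Over all genes 6.88% had an adjusted p below 0.05. For the tRNA symbols 18 of 39 loci lay inside a listed gene, but a row cannot be tied to a locus when its symbol has several. Whether reads were counted by strand is not stated in the sources used here, so reads from a containing or overlapping gene cannot be separated from those of the locus.

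Of the genes that process these RNAs, 1 could be found by symbol. Dcr-1 is the Dicer that cuts microRNA precursors in Drosophila. It had 414, 301 and 221 normalised counts in the controls and 187, 531 and 471 after halofuginone. The groups overlapped, with the lowest and the highest value both in treated bees, and the log2 fold change was 0.26 ± 0.42 (limma SE, adjusted p = 0.763). The aminoacyl-tRNA synthetases and the tRNA processing enzymes carry no symbol by which they could be picked out and were not examined.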

How the data were processed

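RNA of single midguts was enriched for poly(A) and sequenced on an Illumina HiSeq. Going by the methods of the study and the submitters' processing notes, reads were trimmed (Trimmomatic 0.36 is named), mapped to the Amel_4.5 assembly and counted per gene. STAR, Subread and DESeq2 are also named. Counting settings and the treatment of reads that match several loci, as copies of a tRNA gene do, are not stated in the sources used here. The deposited tables hold a signal, gene read counts that the authors divided by 1 size factor per library. Dividing each column by its smallest step gave whole reads for 100% of the values within 0.01 reads.

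Groups came from the sample titles. All 10041 genes entered limma (3.58.1, R 4.3.3) with a variance trend on log2(value + 1) and group as the only term. SE and 95% intervals are limma's. Fold changes on this scale understate those of loci with few reads. DESeq2 (1.42.0) and edgeR (4.0.16) took the recovered reads as alternatives. On simulated data the limma fit was tested first. The members, lists and tests were chosen with earlier results of these data known. The rule names every member, with a value per library for the 5 loci with most reads in each class, for proline tRNA, for members that were called, had an unadjusted p below 0.05 or did not overlap, and for members with 1 library above 3 times the median of the other 5. Mir125, Mir100, Mirlet7, Mir277 and Mir276 were given by library, and LOC102655904, LOC411238, Ets97D-like and Dcr-1 named, after their values were seen. The gene table belongs to assembly Amel_HAv3.1 and not to the build of the reads, and holds no strand or product names. It was used for names, containment and order only. Gene symbols were matched without regard to case for the marker and processing lists. Hbg3 had been entered as a midgut marker and is reported as a gland gene. Other steps used Python 3.11.15 with numpy 2.4.6, pandas 2.3.3 and matplotlib 3.10.9.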

Additional observations from a re-analysis of the deposited data

How the results depend on the processing

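The alternatives were TMM and library total scaling, minimum reads (10 in 3 libraries, or 500 in total), pseudocounts of 0.5 and 4, limma without a trend, DESeq2, edgeR, blocks, and leaving out each library. Where a value moved, the cause was not tested unless it is named. The number of called genes was 385 with DESeq2 against 238 with limma, and 47 to 277 when a library was left out. With library totals the median of all genes was 0.08 against −0.01. The 4 called microRNA loci kept their direction in every alternative. Their number was 0 to 3 when a library was left out (0 without Control 3). Replicates 2 and 3 of both groups were compared with the replicate number as a block, although 2 pairs with a correlation of 0.02 between their deviations do not show that the numbers pair the bees. The replicate block called 3 genes and 0 microRNA loci, and the same libraries without the block 203 genes and 2 microRNA loci, with a microRNA median of 0.22 in both. A block by deposited table called 7 genes and 0 microRNA loci, with adjusted p values of 0.0600 (Mir750) to 0.0811 (Mir9888). In these block fits fewer samples or residual degrees of freedom are left. Without a trend Mir9888 did not pass (0.0686). No alternative called a tRNA locus, and DESeq2 and edgeR gave 0 tRNA loci with an unadjusted p below 0.05. In limma 1 tRNA locus had an unadjusted p below 0.05 without Control 1, and 1 without Halofuginone 2.

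With at least 500 reads in total 1 tRNA locus (median 0.41) and 11 microRNA loci (median 0.15) were left. When a library was left out, the tRNA median ran from −0.25 to 0.15, the microRNA median from −0.08 to 0.10, the log2 ratio of summed microRNA counts from 0.39 to 1.12 and that of the tRNA sums from −0.003 to 0.19. No uncalled locus has a firm direction where its sign turned. With 1 library left out, log2 fold changes ranged as follows: TRNAQ-CUG −0.78 to 0.18, TRNAG-GCC −0.24 to 0.19, TRNAS-GCU −0.32 to 0.060, Mir6065 −0.52 to 0.47, Mir279c −0.36 to 0.055, Mir3726 −0.33 to 0.015, Mir277 −0.091 to 0.39, Mir9883 −0.27 to 0.11, Mirlet7 −0.34 to 0.42, Mir125 −0.52 to 0.57, Mir7 −0.50 to 0.24, Mir6040 −0.16 to 0.26, Mir87-1 −0.25 to 0.20, Mir3784 −0.51 to 0.19, Mir3759 −0.014 to 0.71, Dcr-1 −0.022 to 0.73, LOC100578611 −0.32 to 0.36, LOC408470 −0.13 to 0.081, LOC409882 −0.10 to 0.27, LOC413757 −0.16 to 0.034 and LOC551208 −0.48 to 0.14. Of the loci that kept their sign, for example, TRNAS-AGA ran from −1.32 to −0.057, TRNAG-CCC from 0.12 to 0.63 and Mir3732 from 0.40 to 1.23. With replicates 2 and 3, both with and without the replicate block, it was −0.011 for TRNAR-ACG, 0.64 for Mir6065, 0.22 for Mir279c, 0.0061 for Mir9883, 0.24 for Mir100, 0.35 for Mirlet7, 0.038 for LOC408470 and −0.090 for LOC409882. With library totals it was 0.0018 for TRNAG-GCC, 0.022 for Mir9883, 0.0058 for Mirlet7, 0.021 for Mir7, 0.046 for LOC408470 and 0.038 for LOC413757. It was −0.23 with DESeq2 and −0.25 with edgeR for Mir125, and −0.0010 with TMM for Mir87-1.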
